A study of Macaca fascicularis with 48 samples.

Results

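The comparison of hPara.09, a TREM2 agonist antibody, with anti-gD, its isotype control, was made in cerebral cortex of cynomolgus monkeys (Macaca fascicularis) 4 days after dosing. Its members were chosen by the agent and time point labels, which gave 24 of the 48 libraries and 12 of the 24 animals of the series. The hPara.09 group held 6 animals (numbers 7 to 12) that received 200 mg/kg intravenously once. The anti-gD group held 6 animals (numbers 1 to 6) that received 200 mg/kg of the control antibody by the same route. In the labels the agonist is written Para09.v2, whereas the series text says hPara.09. Sex, age and any undosed group are not analysed here. The remaining 12 animals, taken at day 28 after either antibody, entered no contrast, except where a day 28 value is given. In the fits they helped to estimate the spread between animals, to scale the libraries and to filter low counts. The sums gave 16721 tested genes with them and 16184 without.

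TREM2 is a surface receptor of myeloid cells, and in brain it is carried mainly by microglia. It binds lipids and lipoproteins and signals through the adaptor TYROBP and the kinase SYK, which supports phagocytosis, lipid handling, survival and proliferation of microglia. An isotype control antibody has the same constant region but recognises a target that the animal does not make, here the herpes simplex virus protein gD. Microglia are a minority of cortical cells, so RNA of whole cortex dilutes their transcripts among those of neurons, astrocytes and oligodendrocytes. In such bulk samples, fewer cells of a type and less RNA per cell cannot be told apart.

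RNA was sequenced from 2 frontal cortex punches of each animal, and the libraries of an animal carry title numbers that differ by 24. Title numbers 1 to 24 and 25 to 48 therefore form 2 sets with 1 library of every animal in each, and the labels do not say which site a set holds. The median day 4 library had 20965256 counts in the anti-gD group (range 12137146 to 24247955) and 20807635 in the hPara.09 group (range 14028312 to 32118950). Summed over both libraries, animals held 33348765 to 55236819 counts. Genes are Ensembl IDs without names in the files, and none of the 28623 IDs could be matched to one. Microglial, neuronal and other marker genes, including TREM2 itself, were therefore not analysed here, and the labelled tissue was not checked against markers.

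One library stood apart before any comparison. The library with title number 29, from anti-gD animal 5, was the shallowest at 12137146 counts. Its median correlation of log2 CPM (counts scaled to a fixed library total) with the other day 4 libraries, across genes, was 0.917, whereas those of the other libraries were 0.937 to 0.964. The counts of called genes and of genes with a bounded 2-fold change are also given without it, and values include it unless stated otherwise. Among genes of at least 10 CPM, the libraries of 1 animal differed by a median of 0.204 on the log2 scale over the 12 animals (range 0.121 to 0.350), and animal 5 gave the highest value. Libraries of different animals within a group and set differed by a median of 0.230 (60 pairs), and libraries of animals given different antibodies by 0.230 (72 pairs). In the plot of principal components, libraries of both antibodies were intermingled, whereas the sets differed along the first component. It was positive for 11 of 12 libraries of title numbers 1 to 24 and negative for 10 of 12 of title numbers 25 to 48, and the second library was the lower in 11 of 12 animals.

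**Figure D1:**
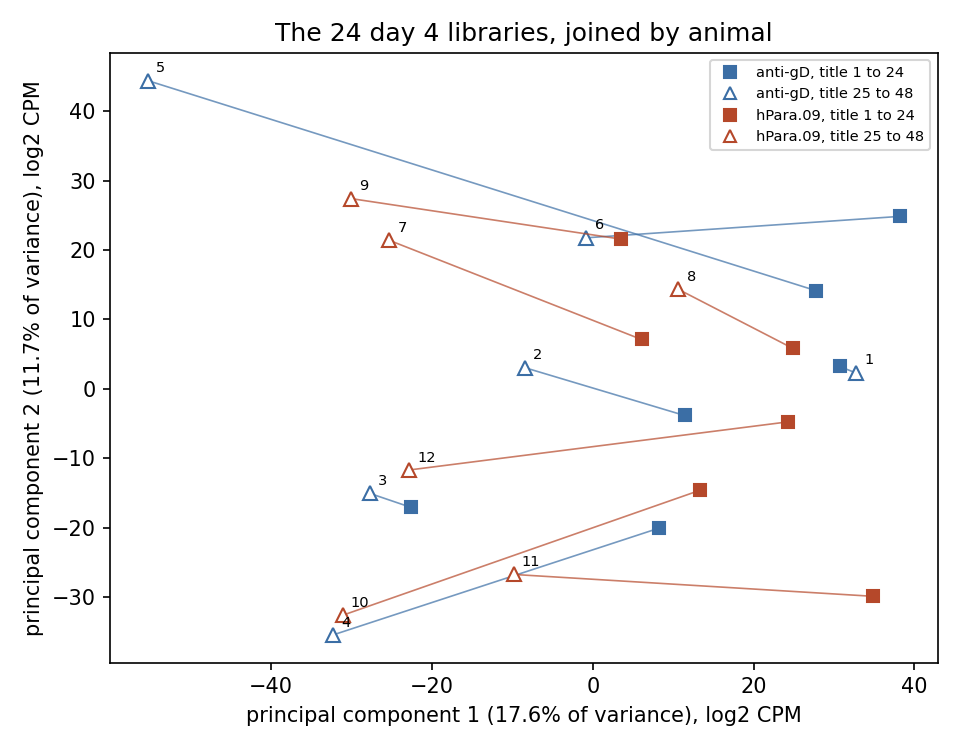
Scores of the 24 day 4 libraries on the first 2 principal components of log2 CPM, with the libraries of an animal joined by a line and labelled by animal number. Squares are title numbers 1 to 24, open triangles are 25 to 48, blue is anti-gD and red is hPara.09. Both colours spread over the same area, most squares lie to the right of the triangles of their animal, and the library of anti-gD animal 5 at -55.3 and 44.4 lies at the edge.

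Whole-library measures showed no antibody difference beyond the spread between animals. The total count was 43520000 ± 9224000 (SD, n = 6) with hPara.09 and 40000000 ± 5449000 (SD, n = 6) with anti-gD. Genes detected numbered 19680 ± 298 (SD, n = 6) and 19470 ± 257 (SD, n = 6). The 10 most abundant IDs took 17.0% ± 3.57 (SD, n = 6) of the counts with hPara.09 and 18.6% ± 2.84 (SD, n = 6) with anti-gD. Over 7 such measures, 3 of them principal component scores of the summed libraries, exact two-sided permutation tests over all groupings of the 12 animals gave p-values from 0.234 to 0.933. After Benjamini-Hochberg adjustment over the 7 measures they were 0.603 to 0.933.

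With both libraries of each animal summed, 16721 genes were tested, and they held 99.98% of the day 4 counts. No gene differed between hPara.09 and anti-gD at an adjusted p under 0.05 in edgeR's quasi-likelihood test (0% of genes called, smallest adjusted p = 0.629). An unadjusted p under 0.05 was found for 433 genes (2.59%), and of these 223 were higher and 210 lower with hPara.09. Limma voom called 0 genes, with 393 at an unadjusted p under 0.05. DESeq2 called 2 genes, with 482 at an unadjusted p under 0.05. Leaving out the library with title number 29 gave 0 called genes and 434 at an unadjusted p under 0.05. Groups without overlap were found for 16 genes (0.0957%), with all hPara.09 animals above all anti-gD animals for 10 and below for 6.

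A missing call says nothing of how large a change the data allow, so the width of the 95% interval of each fold change was taken by expression level. The half-width is given as a fold either way, as the median of a class. Genes were put in 6 classes by their mean over the 12 day 4 animals. The half-width was 1.69-fold for the 2396 genes under 1 CPM and 1.41-fold for the 1900 genes of 1 to 3 CPM. It was 1.30-fold for the 2887 genes of 3 to 10 CPM and 1.21-fold for the 3597 genes of 10 to 30 CPM. It was 1.17-fold for the 3961 genes of 30 to 100 CPM and 1.16-fold for the 1980 genes of at least 100 CPM. Precision thus improved about as far as 30 CPM and little beyond. For 1 gene in 10, the half-width exceeded 2.42-fold under 1 CPM, 1.39-fold at 10 to 30 CPM and 1.27-fold at 100 CPM or more.

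The estimates themselves were smaller than these widths. The median size of the log2 fold change, in either direction, was 0.232 under 1 CPM, 0.108 at 3 to 10 CPM and 0.0496 at 100 CPM or more. Signed class medians lay between -0.0169 and 0.0165 after TMM scaling, which itself centres most genes near 0. A fold change of over 2 was estimated for 166 genes, 102 of them under 1 CPM and 11 at 10 CPM or more. None of these passed the adjusted threshold.

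**Figure D2:**
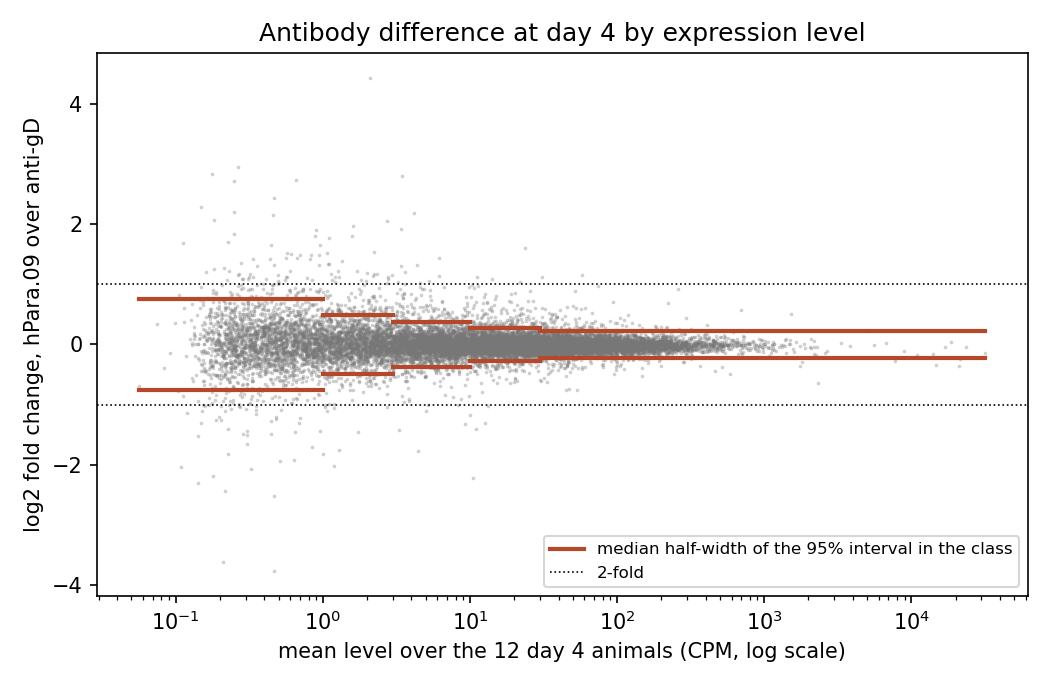
Log2 fold change of hPara.09 over anti-gD at day 4 for each of the 16721 genes tested (y) against its mean level in CPM on a log scale (x). Red lines mark the median half-width of the 95% interval in each of the 6 level classes, and dotted lines mark 2-fold; the scatter narrows with level, and 166 genes lie outside the dotted lines.

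The whole interval lay within 2-fold either way for 14683 genes, 87.8% of those tested. By level, this share was 49.0% under 1 CPM, 79.5% at 1 to 3 CPM, 91.9% at 3 to 10 CPM, 96.7% at 10 to 30 CPM, 98.5% at 30 to 100 CPM and 99.3% at 100 CPM or more. Within 1.5-fold, the share rose from 6.22% under 1 CPM to 84.5% at 10 to 30 CPM and 95.7% at 100 CPM or more. A change under 1.5-fold was thus shown for most abundant genes and for few of the scarce ones.

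Each gene was also tested directly for a change smaller than a stated fold, by 2 one-sided tests from the same edgeR fit, adjusted by Benjamini-Hochberg over all genes. A 2-fold change either way was bounded in this way for 15118 genes (90.4%), a 1.5-fold change for 11927 genes (71.3%) and a 4-fold change for 16518 genes (98.8%). Under 1 CPM, a 2-fold change was bounded for 59.6% of genes and a 1.5-fold change for 10.2%. At 10 to 30 CPM the shares were 97.4% and 87.2%, and at 100 CPM or more they were 99.5% and 96.6%. Without the library with title number 29, a 2-fold change was bounded for 15090 of 16722 genes.

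The interval reached past 2-fold for 2038 genes, and 1223 of these were under 1 CPM. It reached past 4-fold for 323 genes. The spread behind these widths changed its composition with level. Under 1 CPM, the median gene had 18.3 counts per animal and a coefficient of variation of 44.2% between animals of a group, and counting error made up 30.7% of the variance. At 10 to 30 CPM, the median gene had 744 counts, a coefficient of variation of 16.1% and a counting share of 5.20%. At 100 CPM or more, these values were 6870 counts, 12.7% and 0.809%. In abundant genes, counting reads thus made up little of the spread, and the rest was not divided between animals and the punches or libraries of an animal. The 192 genes of at least 10 CPM whose interval reached past 2-fold had a median coefficient of variation of 47.8%, against 13.9% in the other 9346 genes of that level. Their median counts per animal were 898 and 1723.

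Genes that did not enter the test numbered 11902 of the 28623 IDs, held 0.0229% of the day 4 counts, and 5887 of them had no count in any day 4 library. Not all were scarcer than the tested genes. The highest mean among them was 6.82 CPM over the day 4 animals, whereas 2396 tested genes were under 1 CPM. For the IDs not tested, no bound on a change is given.

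**Figure D3:**
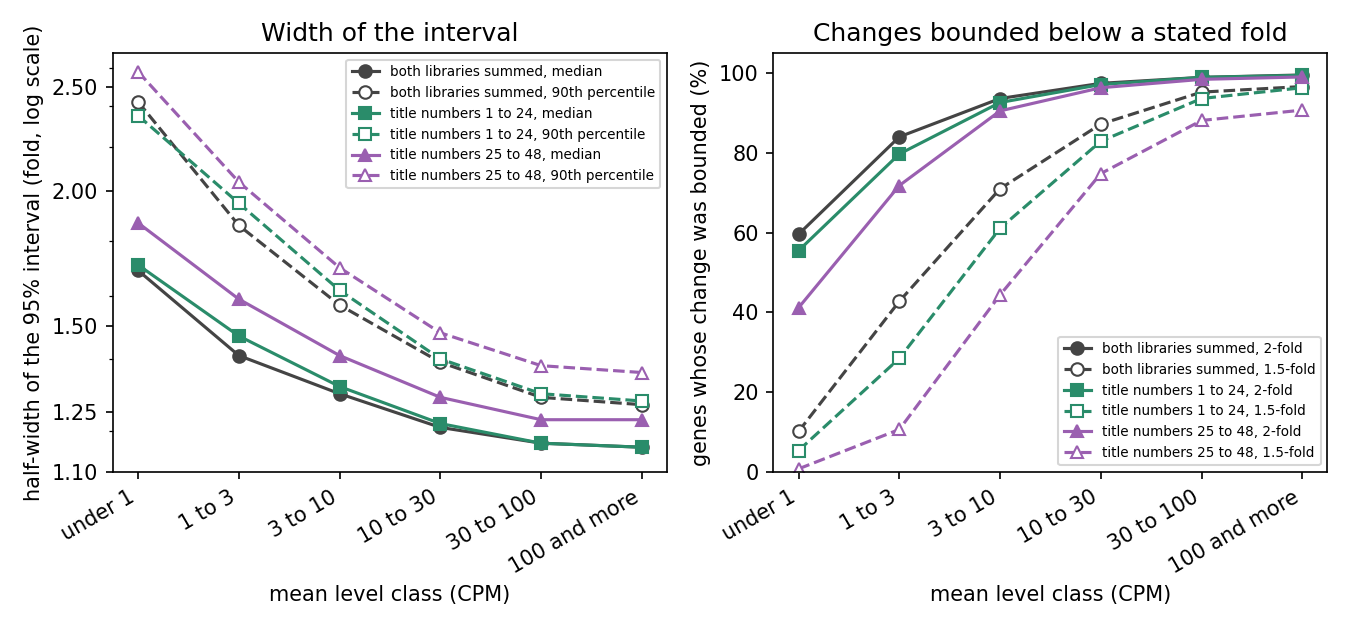
Left, the half-width of the 95% interval of the antibody fold change at day 4 (y, log scale; median solid, 90th percentile dashed) in 6 classes of mean CPM (x). Right, the share of genes in each class for which a 2-fold (solid) or 1.5-fold (dashed) change was bounded; summed libraries reached 59.6% under 1 CPM and 99.5% at 100 CPM or more for 2-fold, and title numbers 25 to 48 lay lowest in every class.

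Both punches were then compared separately, each with 6 animals a side. They come from the same 12 animals, so their results are not independent. In title numbers 1 to 24, edgeR called 1 of 15924 genes (0.00628%), and 985 genes (6.19%) had an unadjusted p under 0.05, of which 398 were higher and 587 lower with hPara.09. In title numbers 25 to 48, edgeR called 0 of 15763 genes (0%), and 298 genes (1.89%) had an unadjusted p under 0.05, of which 157 were higher and 141 lower. DESeq2 called 2 genes in the first set and 0 in the second. Groups did not overlap for 24 genes (0.151%) in title numbers 1 to 24, where hPara.09 was above for 6 and below for 18. They did not overlap for 14 genes (0.0888%) in title numbers 25 to 48, where hPara.09 was above for 9 and below for 5.

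The sets differed in precision and in how small p-values were spread over levels. The median standard error of the log2 fold change was 0.155 in title numbers 1 to 24, 0.197 in title numbers 25 to 48 and 0.155 in the sums. Without the library with title number 29, title numbers 25 to 48 gave a median of 0.199, with 0 called genes and 345 at an unadjusted p under 0.05. The median fold half-width at 100 CPM or more was 1.16 in the first set and 1.23 in the second. Genes with an unadjusted p under 0.05 made up 7.35% of those at 30 to 100 CPM in title numbers 1 to 24, of which 84 were higher and 207 lower with hPara.09. They made up 1.21% of the same class in title numbers 25 to 48, with 14 higher and 34 lower. The median log2 fold change of that class was -0.0356 in the first set and -0.00899 in the second.

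**Figure D4:**
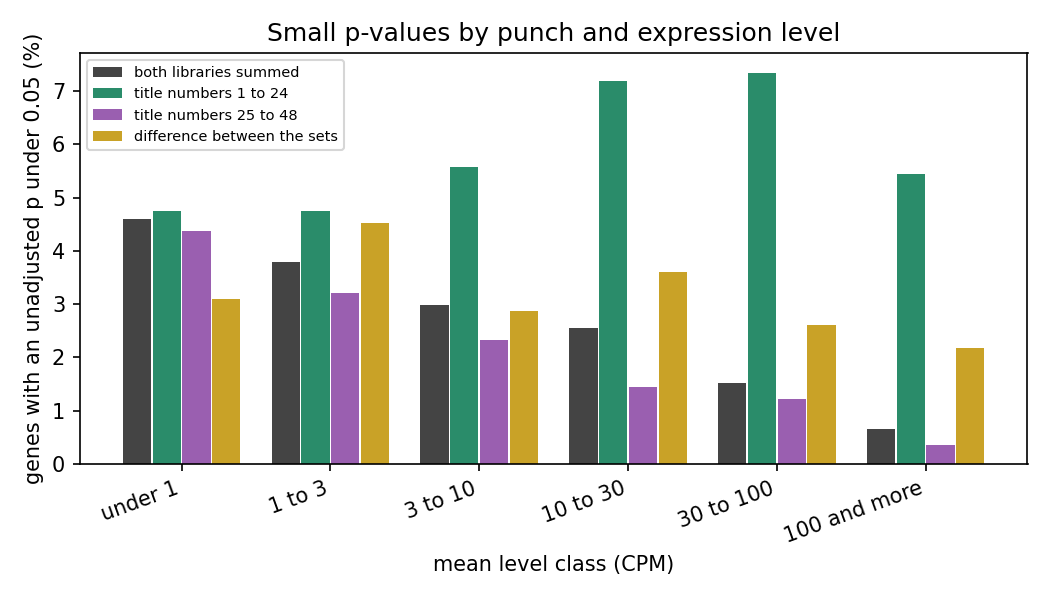
Share of genes with an unadjusted p under 0.05 (y, percent) for the antibody difference at day 4 in the summed libraries, in each library set, and for the difference between the sets, in 6 classes of mean CPM (x). Bars are shares of genes and carry no error; title numbers 1 to 24 reach 7.35% at 30 to 100 CPM, where title numbers 25 to 48 give 1.21%.

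Whether the antibody difference itself differed between punches was tested in 1 model with the animal as a block. No gene passed in edgeR's quasi-likelihood test, 0% of 16267 (smallest adjusted p = 0.989), and limma voom with the animal as a random effect gave 0 as well. An unadjusted p under 0.05 was found for 505 genes in edgeR (3.10%) and for 704 in limma voom. Of the 505, the difference was more positive in title numbers 25 to 48 for 286 and more negative for 219. The median half-width of the 95% interval was 1.29-fold. A 2-fold discrepancy between the punches was bounded for 13937 genes (85.7%) and a 1.5-fold one for 60.9%. The 2-fold share was 22.6% under 1 CPM, 74.5% at 1 to 3 CPM, 97.9% at 10 to 30 CPM and 99.0% at 100 CPM or more. Over all genes of 10 CPM or more it was 98.5%, while under 1 CPM most genes were too imprecise for such a bound. Above 10 CPM a discrepancy of 2-fold was thus bounded for nearly all genes. The antibody differences were themselves small at that level, with a median size of 0.0969 on the log2 scale in title numbers 1 to 24 and 0.0796 in title numbers 25 to 48. The bound therefore does not show that the punches share an effect. Without anti-gD animal 5, whose second library is number 29, the count at an unadjusted p under 0.05 was 1636 of 16348 genes, still with 0 called. This was a larger share than the 505 of 16267 with all animals. The count was 758 of 16332 without anti-gD animal 4, 773 of 16355 without hPara.09 animal 12 and 285 of 16345 without hPara.09 animal 9, each with 0 called.

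Single IDs are given to show where the smallest p-values lay, namely the 2 higher and 2 lower with the smallest p among genes of at least 1 CPM, with 1 more added after its values were seen. ENSMFAG00000000864 had the smallest p. Summed levels in anti-gD animals were 5.78 CPM at the lowest, 6.68 at the median and 8.68 at the highest, and in hPara.09 animals 7.23, 13.5 and 21.0 CPM. Of the 6 hPara.09 animals, 5 lay above every anti-gD animal, and animal 11 lay within their range. The mean was 13.8 ± 4.66 CPM (SD, n = 6) against 6.92 ± 1.03 CPM (SD, n = 6), a log2 fold change of 1.00 with a standard error of 0.199 that did not pass in edgeR (adjusted p = 0.629).

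In title numbers 1 to 24, ENSMFAG00000000864 lay between 6.88 and 23.2 CPM in hPara.09 animals and between 5.41 and 7.38 CPM in anti-gD animals. Its log2 fold change of 1.21 (standard error 0.195) passed in that set alone in edgeR (adjusted p = 0.0275), with 5 of 6 hPara.09 animals above all anti-gD animals. The call was lost when only the day 4 animals were fitted (edgeR, smallest adjusted p of any gene = 0.948) and in 7 of the 12 fits that each left out 1 animal. It was kept in the rest of those fits and with DESeq2. It was also kept in edgeR with upper-quartile factors (adjusted p = 0.0227) and without the filter on low counts (adjusted p = 0.021). In title numbers 25 to 48 it was at 7.44 to 18.0 CPM and 5.90 to 12.2 CPM, and the log2 fold change of 0.76 (standard error 0.263) did not pass (edgeR, adjusted p = 1). The anti-gD levels thus reached higher in the second punch, to 10.0 CPM in animal 2 and 12.2 CPM in animal 6. The difference between the sets was -0.38 with a standard error of 0.258 and did not pass (edgeR, adjusted p = 0.989). DESeq2 called this gene on the sums (adjusted p = 0.0123). The adjusted p of the alternatives lay between 0.0123 and 1, with DESeq2 on a single set not among them. At day 28 the hPara.09 animals lay at 9.45 to 15.4 CPM and the anti-gD animals at 8.06 to 17.2 CPM, and the groups overlapped. The log2 fold change was 1.06 larger at day 4 than at day 28 (standard error 0.279), which did not pass in edgeR (adjusted p = 1).

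ENSMFAG00000008215 was scarce. Summed levels in anti-gD animals were 0.331 CPM at the lowest, 0.474 at the median and 0.656 at the highest, and in hPara.09 animals 0.689, 1.95 and 2.86 CPM. The groups did not overlap, although hPara.09 animals 7 and 12 lay just above the anti-gD range. With 13 to 29 counts per anti-gD animal, the log2 fold change of 1.78 (standard error 0.419) did not pass (edgeR, adjusted p = 1). It was 1.81 in title numbers 1 to 24 and 1.70 in title numbers 25 to 48, a difference of -0.11 with a standard error of 0.374 (edgeR, adjusted p = 0.994). The groups overlapped in each set alone, with 4 of 6 hPara.09 animals above all anti-gD animals in title numbers 1 to 24 and 5 of 6 in title numbers 25 to 48. At day 28 the log2 fold change was 0.04 (standard error 0.397, edgeR, adjusted p = 0.994).

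ENSMFAG00000032666 was among the lower IDs and had a small, even difference. Summed levels in anti-gD animals were 46.7 CPM at the lowest, 51.7 at the median and 52.4 at the highest, and in hPara.09 animals 38.7, 41.3 and 46.1 CPM. The groups did not overlap, and animal 3 of the anti-gD group and animal 12 of the hPara.09 group were nearest to each other. The log2 fold change of -0.30 (standard error 0.0753) did not pass (edgeR, adjusted p = 1). The sets gave -0.29 and -0.30, and the groups overlapped in title numbers 25 to 48 through hPara.09 animal 12 at 47.4 CPM. At day 28 the group means were 47.7 CPM with hPara.09 and 47.9 CPM with anti-gD (edgeR, adjusted p = 0.997).

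ENSMFAG00000031817 was the other lower ID. Summed levels in anti-gD animals were 28.7 CPM at the lowest, 33.2 at the median and 39.1 at the highest, and in hPara.09 animals 25.7, 26.8 and 29.7 CPM. The groups overlapped, with 4 of 6 hPara.09 animals below every anti-gD animal. The log2 fold change of -0.27 (standard error 0.0773) did not pass (edgeR, adjusted p = 1). It was -0.35 in title numbers 1 to 24, where the groups did not overlap, and -0.20 in title numbers 25 to 48, where anti-gD animal 6 was at 24.6 CPM, against 41.4 CPM in its other punch. At day 28 the estimate had the opposite sign, with a log2 fold change of 0.16 (standard error 0.0772, edgeR, adjusted p = 0.951) and 5 of 6 hPara.09 animals above all anti-gD animals. The difference between the days was -0.44 with a standard error of 0.109 and did not pass (edgeR, adjusted p = 1).

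ENSMFAG00000046527, the second gene that DESeq2 called (adjusted p = 0.0417), separated animals within the hPara.09 group. It is named after its values were seen. Summed levels were 6.39, 8.78, 3.99 and 4.73 CPM in hPara.09 animals 9, 10, 11 and 12, and 0.230 and 0.0551 CPM in animals 7 and 8. The 6 anti-gD animals were at 0.0509 to 0.393 CPM, from 2 to 13 counts each. Animals 7 and 8 thus lay within the anti-gD range and the other hPara.09 animals far above it, in both punches. Animals 9 to 12 were at 3.10 to 9.76 CPM in title numbers 1 to 24 and at 3.64 to 7.45 CPM in title numbers 25 to 48. At day 4, this ID reached 10 counts in hPara.09 animals 9 to 12 and in anti-gD animals 3 and 5, with 13 counts each in the latter. It thus passed the filter largely through the group where it was high, so its calls are a limited test of a difference. Its log2 fold change of 4.44 had a standard error of 1.09 and did not pass in edgeR (adjusted p = 1), and the adjusted p of its alternatives lay between 0.0115 and 1. The 0.0115 came from edgeR with the libraries as separate samples, which counts both punches of an animal as replicates. With the animal as the replicate, the lowest of these was the 0.0417 of DESeq2 on the sums. They do not include DESeq2 on a single set. In title numbers 1 to 24 alone, DESeq2 called this gene and ENSMFAG00000000864, and the smaller adjusted p of the pair was 1.48e-05. At day 28 the hPara.09 animals lay at 0.185 to 10.3 CPM and the anti-gD animals at 0.0281 to 0.472 CPM, a log2 fold change of 4.23 (standard error 1.05) that did not pass (edgeR, adjusted p = 0.947). Of the hPara.09 animals, 4 of 6 lay above all anti-gD animals at day 4 and 3 of 6 at day 28. The SD over animals was 3.43 CPM with hPara.09 and 0.139 CPM with anti-gD at day 4, and 4.79 and 0.164 CPM at day 28; the difference in spread was not tested.

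**Figure D5:**
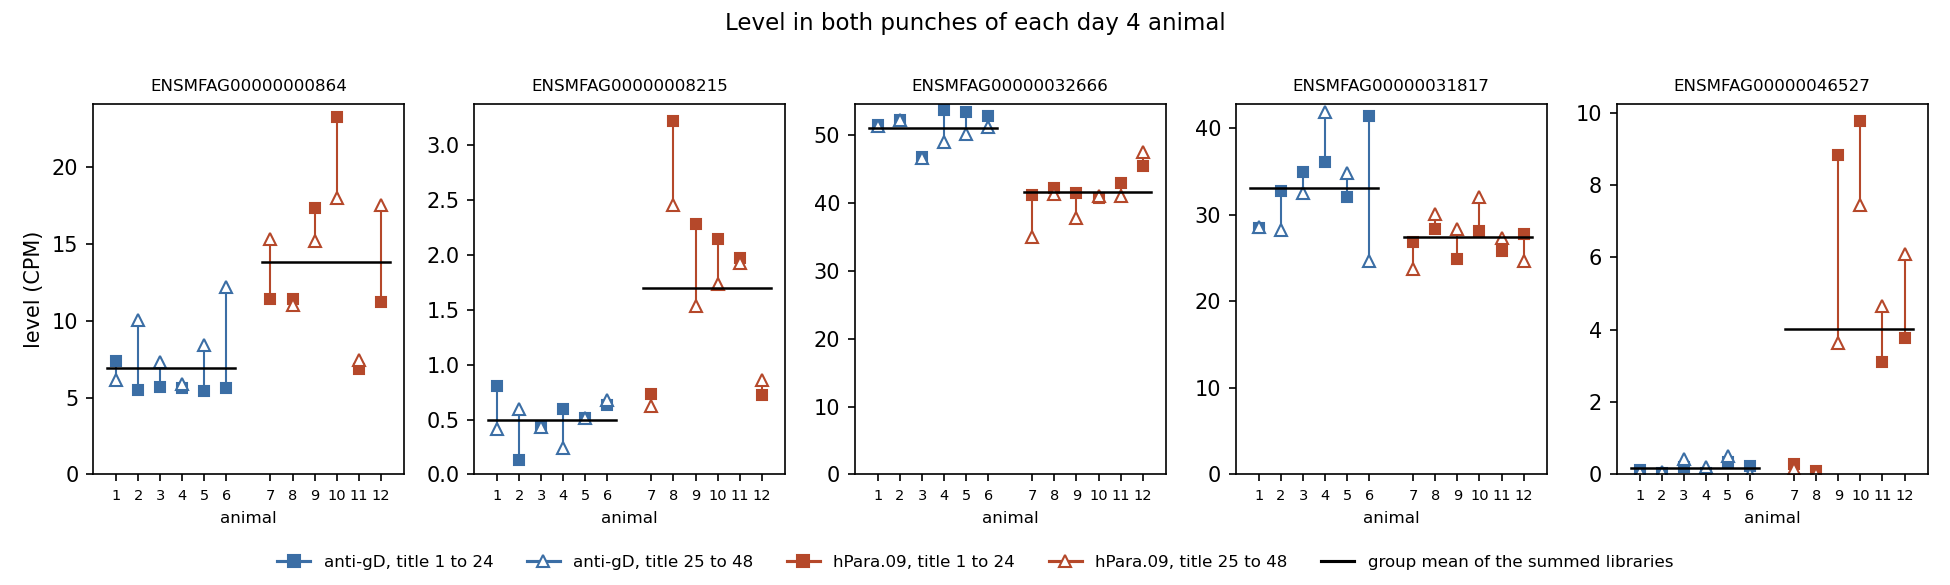
Level in CPM (y) of 5 IDs in each day 4 animal (x, animal number), with title numbers 1 to 24 as squares and 25 to 48 as open triangles, joined by animal. Black lines are group means of the summed libraries. ENSMFAG00000046527 is at 3.10 CPM or more in both punches of animals 9 to 12 and near 0 elsewhere.

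Single animals changed the number of called genes. Leaving out hPara.09 animal 11 gave 1 called gene, ENSMFAG00000000864 (edgeR, adjusted p = 0.0276). Leaving out hPara.09 animal 12 gave 1 called gene, ENSMFAG00000038356 (edgeR, adjusted p = 0.0322), which is named after its values were seen. With all animals it did not pass the filter on low counts. It had 11 to 68 counts in hPara.09 animals 7 to 11 and 3 to 7 in anti-gD animals. At day 4 it thus reached 10 counts only in the group where it was high, so its call cannot serve as a test of a difference. The summed levels of this ID were 0.0761 to 0.152 CPM in anti-gD animals. In hPara.09 animals 7, 8, 9, 10 and 11 they were 0.359, 0.471, 0.519, 0.339 and 1.27 CPM, and animal 12 was at 0.0222 CPM from 1 count. Leaving out any other day 4 animal gave 0 called genes. The number of genes with the interval within 2-fold was 14405 to 14507 over the 12 fits that each left out 1 day 4 animal.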

How the data were processed

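For 28623 Ensembl IDs, each deposited file held whole-number counts of exonic reads, the width of the gene and RPKM, per the file headers. GSNAP is named in the submitters' processing notes; for its version, the genome build, annotation, strand handling and treatment of shared reads, nothing is given in the sources used here, so overlapping genes and close copies are uncertain. The RPKM values deposited by the authors were used only to recover the number of reads they had divided by. Counts deposited for both libraries of an animal were summed, because an animal is the replicate. The libraries of an animal were not copies: over genes of 20 or more reads, chi-square per degree of freedom ranged from 9.007 to 115.6.

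Summed counts were tested in edgeR 4.0.16 (R 4.3.3) by its quasi-likelihood method, after TMM scaling and the default filter on low counts (minimum 10), with 1 mean per group over 24 animals. P-values are two-sided with Benjamini-Hochberg adjustment over all genes tested and a threshold of 0.05. The standard error was taken as log2 fold change over the root of F, and intervals are at 95%. Values printed as CPM use the TMM library sizes of their own fit. Limma voom (limma 3.58.1) and DESeq2 1.42.0 were alternatives. Scripts were tested on simulated data. Intervals assume that the spread is alike in all 4 groups. Principal components used log2 CPM with a prior count of 2.

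The IDs named were the 2 higher and 2 lower with the smallest p and at least 1 CPM; any other is marked. The members, the 17 gene lists and the tests were chosen with earlier results of these data known. The lists, written by symbol, were not used because 0 IDs matched a name. No fit could be paired across antibodies, since each animal received 1 agent and numbers are not shared between groups. Sequences are not analysed here.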

Additional observations from a re-analysis of the deposited data

Results flagged for a closer look

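Of 24 sets of 6 values examined for 1 animal far from the others of its group, 2 held such an animal, and chance flags about 1 in 20 such sets. Some sets were CPM values of the named IDs, which were picked from these data, so that rate need not hold for them. The principal component 2 score of the summed libraries was -35.4 in hPara.09 animal 9 and -0.0606 to 20.3 in the other hPara.09 animals. ENSMFAG00000032666 was at 46.7 CPM in anti-gD animal 3 and at 51.5 to 52.4 CPM in the other anti-gD animals.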

How the results depend on the processing

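The count of called genes in the sums was 0 with upper-quartile factors, no filter on low counts, limma voom, only the day 4 animals and the animal as a random effect. It was 2 with DESeq2, 1 in title numbers 1 to 24 alone and 7 with the libraries as separate samples and no replicate block, and 0 to 1 with 1 animal left out. No paired analysis was possible because no animal received both antibodies. At an unadjusted p under 0.05, no filter gave 706 of 23535 genes and the separate libraries 925 of 15853, against 433 of 16721. In title numbers 1 to 24, the count of 1 became 2 with DESeq2, 0 with only the day 4 animals (smallest adjusted p = 0.948) and 0 to 2 with 1 animal left out: 0 without anti-gD animal 2, 3, 4, 5 or 6 or hPara.09 animal 9 or 10, and 2 without hPara.09 animal 12. In title numbers 25 to 48 and for the difference between sets, the count was 0 under every alternative run. Over the alternatives, 13347 to 15543 genes had the interval within 2-fold, and 13888 to 15781 had a 2-fold change bounded. These counts are out of unlike totals. The highest came without the filter, out of 23535 genes, and the lowest from title numbers 25 to 48 alone, out of 15763. The main fit gave 14683 and 15118 of 16721, so the fit without the filter had higher counts but lower shares. The principal component 1 difference (hPara.09 minus anti-gD) was -2.63 in the sums and 5.15 in title numbers 1 to 24. The components of the set were computed separately, and only their sign was matched to those of the sums. The opposite signs therefore need not be a reversal along the same axis. Neither difference passed in the exact permutation test (adjusted p = 0.933 in the sums and 0.892 in the set). The fits without library 29 were chosen after seeing the data.

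Precision is limited by the spread over 6 animals a side, which for abundant genes is mostly not counting error and was not divided between animals and punches, and also by read depth under 1 CPM. P-values assume independent animals. Without gene names, microglial transcripts were not analysed here.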
